A study of Drosophila melanogaster with 8 samples.

Results

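The 10 peptide hormone genes of enteroendocrine (EE) cells were examined for peaks of chromatin profiling around Cph in midgut progenitors: *Tk*, *NPF*, *AstA*, *AstC*, *CCHa1*, *CCHa2*, *Dh31*, *Orcokinin*, *Mip* and *sNPF*. They were taken by name from 13968 protein-coding genes on the main chromosomes. A locus was defined as the gene body and the 3 kb upstream of it in the BDGP6 annotation. All 10 genes were found, and their loci together covered 113.928 kb. The samples belong to a NanoDam experiment in *Drosophila melanogaster*, in which Dam methylase fused to a nanobody methylates GATC sites around a tagged DNA-binding protein. In the 4 Cph NanoDam samples, the esgTS driver expressed NanoDam in intestinal progenitors of flies with endogenously tagged CphYFP. In the 4 NanoDam-only control samples, the same driver expressed NanoDam in flies without the tagged Cph. Each sample held 30 midguts of adult flies aged 3 to 5 days, which had been moved from 18 °C to 29 °C 17 h before dissection. For replicates 3 and 4 the labels add batch 2, and for the others they name no batch.

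EE cells are the hormone-secreting cells of the midgut epithelium. They arise from intestinal stem cells through short-lived EE progenitors, and mature cells fall into broad kinds that are told apart by peptides such as tachykinin or allatostatin C. Each peptide is cut from a longer precursor protein, stored in vesicles and released in response to food or other signals in the gut. The esgTS driver acts in progenitors and not in mature EE cells, in which most of these hormones are made. The progenitors also include enteroblasts, which give rise to enterocytes. The values below thus describe chromatin of mixed progenitors and not of a single stage on the way to EE cells. The files hold peaks on DNA and no expression, so the labelled cell type could not be checked against marker genes.

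The peak lists came from libraries of 55557571 to 125721243 reads. In each of the 4 replicates the control library was the deeper, by 1.14 to 1.31 times. Every Cph library had been called against the control of its own number, and these are referred to as Cph-over-control peaks. Their fold enrichment, given below as that of Cph over control, is a ratio to the local background. It is not the ratio of Cph signal to control signal. At the start of *AstC*, for example, it was 1.99 for Cph library 2 both with and without the control. All 8 libraries had also been called without a control, which gives peaks for both genotypes. In those lists, 43.7% to 46.7% of peaks in Cph libraries and 42.6% to 46.1% of peaks in controls started exactly 7 bases after a GATC site. The edges of many peaks thus coincided with those of GATC fragments.

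All 10 peptide hormone loci held a Cph-over-control peak in at least 1 replicate, and 7 to 8 of them did in each replicate. At 7 loci such peaks fell on the same site in 3 or 4 replicates, but most peak sites were not found in all replicates. These counts were not set beside those of all loci. A shared region was defined as a stretch of at least 200 bp that Cph-over-control peaks covered in each of the 4 replicates. Of the 10 loci, 3 held such a region (*AstA*, *CCHa2* and *Mip*), with 1 region each. Over all protein-coding loci, 39.5% held a shared region (5523 of 13968). Among the 6431 loci within the length range of the hormone loci this share was 48.9%, and among the 5583 loci within their range of GATC density it was 37.0%. Per 10 kb of locus, the hormone genes held 0.263 shared regions, against 0.729 over all loci. The count of 3 depended on the settings. With a fold enrichment of at least 2 in every list, or a minimum length of 500 bp, 0 loci remained, against 11.7% and 9.99% of all loci. With peaks in at least 3 of the 4 lists 6 of the 10 loci had a region, and so did 62.2% of all loci. With the gene body alone only *Mip* was counted, by 1 base of its region, whose other 374 bases lie upstream (26.8% of all loci). Without replicate 4 *AstC* and *CCHa1* joined the 3 loci (47.3% of all loci). The strongest Cph-over-control peak of a hormone locus had a fold enrichment of 2.95, in both *Orcokinin* and *Mip*. Ranked among all loci with a peak in the same replicate, the strongest peak of each hormone locus fell between percentiles 2.81 (*sNPF*, replicate 4) and 90.0 (*AstA*, replicate 1).

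**Figure D1:**
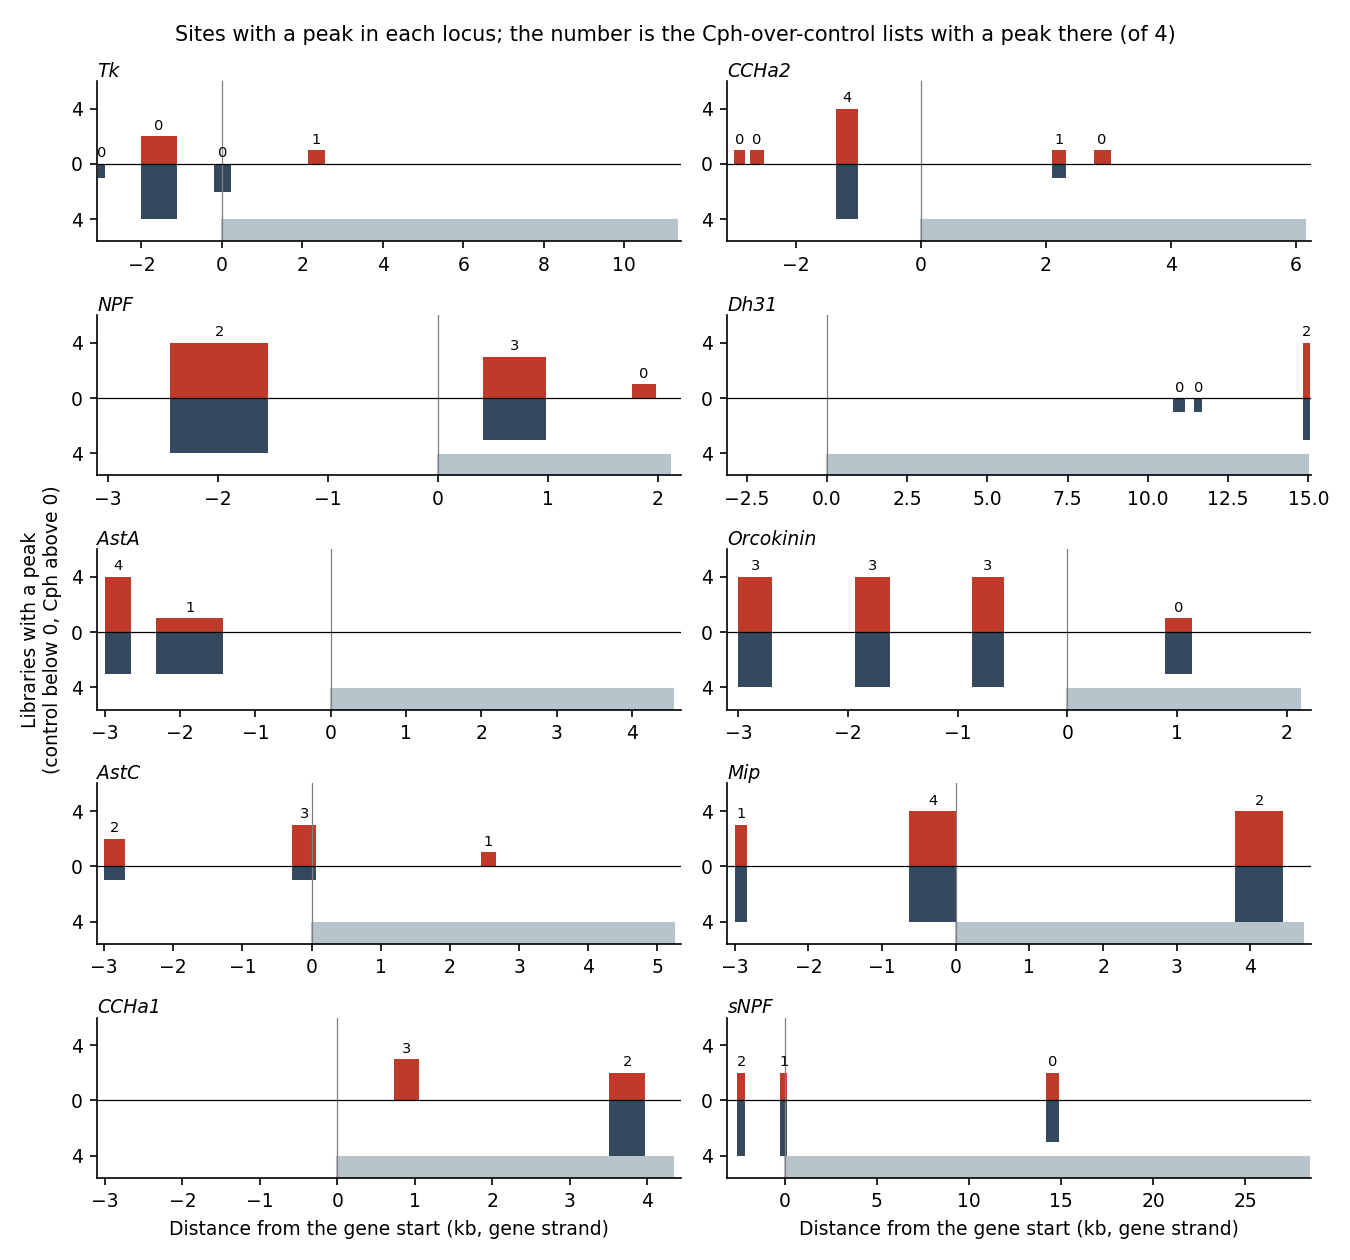
Each panel shows the locus of 1 gene along its own strand, with the gene body as a grey bar and the distance from the gene start in kb on the x axis. Red bars above 0 give the number of Cph NanoDam libraries, and dark bars below 0 the number of control libraries, with a peak called without a control (4 of each); the number over a bar is the count of Cph-over-control lists with a peak, and very narrow sites are drawn wider than they are. The sites with 4 such lists lie upstream in *AstA* and *CCHa2* and at the start of *Mip*.

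Merging the peaks of all 12 lists gave 32 sites in the 10 loci. A peak in all 8 libraries was present at 7 of these sites. Cph libraries alone held a peak at 7 sites and control libraries alone at 4. All 4 control libraries but fewer than 4 Cph libraries had a peak at 5 sites, and the opposite was the case at 2. Most of the sites held by either genotype alone were called in no more than 1 library. How often such sites occur over all loci was not counted. The Cph-over-control lists covered 3 sites in 4 replicates, 6 sites in 3 replicates and 11 sites in none. Upstream sequence made up most of 17 sites and introns most of 8.

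The sequences of 6 of these sites are shown. They are the 3 shared regions, 2 sites with Cph-over-control peaks in 3 replicates, and a site at a gene start that all 4 controls but only 2 Cph libraries had called. Other sites that were called in all 8 libraries, such as those of *Orcokinin* and *NPF*, are not printed. The sequences were read from the release 6 genome of RefSeq on the strand of the gene, 5′ to 3′, without coding and UTR bases, and run up to the GATC sites that bound the fragment where these were close. Capitals mark GATC, the site that Dam methylates, and TGACCA on either strand (TGGTCA on the other), the motif of BCL11A, the human relative of Cph. The lines give the shared regions of AstA, CCHa2 and Mip, the regions of 3 replicates in AstC and CCHa1, and a site of sNPF that was called in all 4 controls. The Mip line was cut to 300 bases and leaves out the part of its 375 bp region nearest the gene start.
AstA, chr3R:24767847-24768092, minus strand: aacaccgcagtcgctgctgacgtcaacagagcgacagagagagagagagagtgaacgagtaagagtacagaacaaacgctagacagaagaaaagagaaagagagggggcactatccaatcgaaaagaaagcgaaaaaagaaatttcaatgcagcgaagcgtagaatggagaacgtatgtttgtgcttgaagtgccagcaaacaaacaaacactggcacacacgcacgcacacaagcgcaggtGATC
CCHa2, chr3R:13396247-13396466, minus strand: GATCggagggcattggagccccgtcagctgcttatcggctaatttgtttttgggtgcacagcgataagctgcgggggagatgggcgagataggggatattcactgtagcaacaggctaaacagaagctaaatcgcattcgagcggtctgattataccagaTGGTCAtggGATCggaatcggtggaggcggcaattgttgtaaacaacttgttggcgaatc
Mip, chr3L:17349752-17350051, minus strand: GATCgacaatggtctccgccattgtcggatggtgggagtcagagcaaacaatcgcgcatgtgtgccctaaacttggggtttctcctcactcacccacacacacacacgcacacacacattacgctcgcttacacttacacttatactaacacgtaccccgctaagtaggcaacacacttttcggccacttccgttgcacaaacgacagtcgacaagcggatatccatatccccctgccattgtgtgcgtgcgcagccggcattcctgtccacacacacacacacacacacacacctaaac
AstC, chr2L:11081400-11081539, minus strand: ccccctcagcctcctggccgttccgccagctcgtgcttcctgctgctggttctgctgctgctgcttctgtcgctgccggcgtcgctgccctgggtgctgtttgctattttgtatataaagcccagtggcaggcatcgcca
CCHa1, chr3R:14095808-14096033, minus strand: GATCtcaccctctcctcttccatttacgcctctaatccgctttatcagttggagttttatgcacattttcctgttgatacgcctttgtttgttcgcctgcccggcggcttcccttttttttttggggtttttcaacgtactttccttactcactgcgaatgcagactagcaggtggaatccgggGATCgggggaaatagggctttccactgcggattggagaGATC
sNPF, chr2L:20027662-20027914, plus strand: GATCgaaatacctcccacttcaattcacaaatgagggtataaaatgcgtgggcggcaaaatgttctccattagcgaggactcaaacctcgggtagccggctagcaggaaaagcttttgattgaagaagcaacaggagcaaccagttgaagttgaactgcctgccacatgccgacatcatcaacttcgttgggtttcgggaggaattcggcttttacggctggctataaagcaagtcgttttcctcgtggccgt

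Of the 6 printed stretches, only that of *CCHa2* held TGACCA, with 1 match. The stretches are parts of sites, and over the whole sites the motif was present in 6 of 32, among them those of *CCHa1* and *Mip* from which stretches are printed, with 1 match each, and that of *CCHa2*, with 2. Over the 7289 shared regions of the genome, which had a median length of 275 bp, 21.8% held this motif. Among the 300 bases before each of the 13968 protein-coding genes 13.7% did. Of the 16229 regions of at least 200 bp with a peak in all 8 libraries, controls included, 24.8% held it. The sets were not matched for length, and 5541 of the regions called in all 8 libraries had at least 500 bp. These percentages therefore do not tell in which set the motif is more frequent per base. GATC was present in 57.1% of shared regions, 60.1% of the regions called in all 8 libraries and 44.1% of those 300-base stretches. The stretch of *AstC*, which directly precedes the gene start, had a GC content of 62.1%, whereas the others ranged from 47.2% to 52.7% and the median of the 300-base stretches was 37%.

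*AstA*, *AstC* and *Mip* encode allatostatins. *AstA* (FBgn0015591, 3R, 24760530 to 24765071, minus strand) encodes allatostatin A, a galanin-like peptide. Its shared region lay 2787 bp upstream of the gene start (3R, 24767858 to 24768092) and overlapped a long non-coding RNA gene, lncRNA:CR45650. The fold enrichment of Cph over control was 2.64, 2.39, 2.03 and 1.84 in replicates 1 to 4. The region reached past the far end of the locus at 24768071, and 3 of the 4 control libraries also had a peak there when called without a control. A site nearer the gene, 1429 bp upstream (3R, 24766500 to 24767389), was called in controls 1, 2 and 4 and in Cph library 1 only. Replicate 1 had a Cph-over-control peak there (1.81). The gene body of *AstA* held no peak in any of the 8 libraries.

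*AstC* (FBgn0032336, 2L, 11076165 to 11081399, minus strand) encodes allatostatin C, a somatostatin-like peptide whose release from EE cells affects energy use during starvation. A site over the gene start (2L, 11081331 to 11081682) had a Cph-over-control peak in replicates 1, 2 and 3, with fold enrichments of 1.86, 1.99 and 1.75, and none in replicate 4. Among the control libraries, only that of replicate 1 had a peak at this site. A second upstream site (2L, 11084095 to 11084399), which lies over the neighbouring gene *AstCC*, had Cph-over-control peaks in replicates 1 and 3 only.

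*Mip* (FBgn0036713, 3L, 17344947 to 17349666, minus strand) encodes myoinhibitory peptides, also known as allatostatin B, which act on the sex peptide receptor SPR. Its shared region started at the transcription start and extended upstream (3L, 17349666 to 17350040), and it was the longest of the 3 at 375 bp. Fold enrichments of Cph over control were 1.91, 2.95, 2.43 and 2.15. All 4 control libraries had a peak here too. When called without a control, the fold enrichment over the local background was 2.91, 3.396, 3.52 and 3.57 in the Cph libraries and 2.58, 1.68, 2.17 and 2.66 in the controls, so that the lowest Cph library lay above the highest control. At the other end of the gene, a site with 449 coding bases (3L, 17345220 to 17345869) was called in all 8 libraries, and there each Cph library lay below the control of its number, with 1.70 to 2.26 against 2.00 to 2.86. The direct comparison did not follow this order, since replicates 3 and 4 had Cph-over-control peaks here (1.67 and 1.42).

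*CCHa1* and *CCHa2* encode related peptides of EE cells. CCHa2 responds to nutrients and stimulates the release of insulin-like peptides from the brain, and CCHa1 has been tied to sleep. In *CCHa2* (FBgn0038147, 3R, 13389059 to 13395197, minus strand), the shared region lay 1050 bp upstream (3R, 13396247 to 13396455), with fold enrichments of Cph over control of 1.82, 2.08, 1.90 and 1.57. It lay in a site that was called in all 8 libraries, where the fold enrichment over the local background was 3.56 to 5.96 for Cph and 2.36 to 5.18 for control libraries. The remaining 4 sites of *CCHa2* were each called in 1 Cph library, and 1 of them also in a control. In *CCHa1* (FBgn0038199, 3R, 14092504 to 14096835, minus strand), an intronic site 731 bp inside the gene (3R, 14095782 to 14096104) was called in Cph libraries 1, 2 and 3 and in no control library. The fold enrichment of Cph over control was 2.23, 1.93 and 2.04 in these replicates, and replicate 4 had no peak there in either kind of list. A site in the 3′ part of *CCHa1*, with 262 coding bases (3R, 14092859 to 14093326), was called in all 4 controls and in Cph libraries 1 and 4 only. In the direct comparison those replicates had Cph-over-control peaks, with weak fold enrichments of 1.35 and 1.60.

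**Figure D2:**
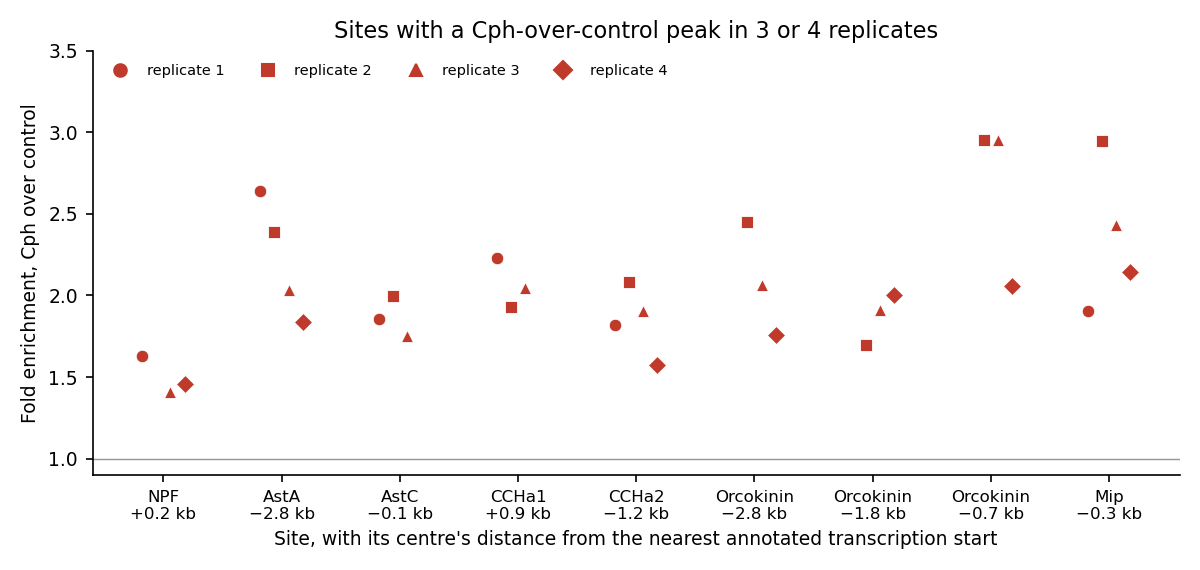
The y axis gives the fold enrichment of the Cph-over-control peak in each replicate (1 point a replicate, none where no peak was called) for the 9 sites with a peak in 3 or 4 replicates; the x axis names the gene and the distance of the site's centre from the nearest annotated transcription start. Values run from 1.41 in *NPF* to 2.95 in *Orcokinin* and *Mip*, and *Orcokinin* has no point for replicate 1 at any of its 3 sites.

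*Orcokinin* (FBgn0034935, 2R, 23946959 to 23949076, minus strand) encodes a peptide described in crayfish before it was found in flies. It had Cph-over-control peaks at 3 upstream sites, each in replicates 2, 3 and 4 and none in replicate 1. All 3 sites were called in all 8 libraries without a control. They lay within the neighbouring gene *Stoml2*, and the 2 more distant sites also overlapped *fzr2*. The strongest began 579 bp upstream, with fold enrichments without a control of 10.3, 14.2, 19.9 and 14.8 in the Cph libraries and 9.62, 8.37, 15.8 and 15.5 in the controls. These values overlapped between the genotypes. Over control, the Cph libraries of replicates 2, 3 and 4 reached 2.95, 2.95 and 2.06 at this site. Since the stretch belongs to other genes as well, its peaks cannot be assigned to *Orcokinin* by position.

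*Tk*, *NPF* and *Dh31* encode peptides of the tachykinin-positive kind of EE cell. Tachykinin restrains lipid production in the gut, NPF links mating and diet to other organs, and Dh31 promotes contractions of the gut. In *Tk* (FBgn0037976, 3R, 11994175 to 12005473, minus strand), the only Cph-over-control peak was intronic and occurred in replicate 4 alone, with a fold enrichment of 1.68. Its site also overlapped the gene *Ect3*. The main site of *Tk* (3R, 12006593 to 12007487, within the gene *KLHL18*) was called in all 4 controls, with 3.26, 2.03, 2.81 and 2.26, but only in Cph libraries 1 and 4, with 2.02 and 1.57. A site over the start of *Tk* was called in controls 1 and 4 and in no Cph library. *NPF* (FBgn0027109, 3R, 16609220 to 16611325, plus strand) had an upstream site called in all 8 libraries (3R, 16606785 to 16607676), where only replicates 3 and 4 had Cph-over-control peaks (2.53 and 2.03). Its site over an internal transcription start (3R, 16609629 to 16610198) had weak peaks over control in replicates 1, 3 and 4, with 1.63, 1.41 and 1.46. Without a control, the same replicates were called in both genotypes, with 2.59, 1.65 and 2.13 for Cph and 2.42, 1.69 and 2.76 for control libraries. There the control was the higher in replicates 3 and 4. *Dh31* (FBgn0032048, 2L, 8491868 to 8506845, minus strand) was nearly free of peaks. Its 2 intronic sites, over the nested gene *Bace*, were each called in 1 control library and in no Cph library, and its remaining site was the last 43 bases of a peak that lay mostly beyond the 3′ end of the gene.

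*sNPF* (FBgn0032840, 2L, 20027915 to 20056373, plus strand) encodes a peptide that promotes feeding and growth. It had no site with a Cph-over-control peak in more than 2 replicates. Its transcription start (2L, 20027673 to 20028064) and a site 2132 bp upstream (2L, 20025344 to 20025783) were called in all 4 controls and in 2 Cph libraries each. The upstream site also overlapped the gene *AANATL3*. At the start, fold enrichments without a control were 2.86, 2.57, 2.06 and 1.82 in the controls, and 3.66 and 1.86 in Cph libraries 1 and 2. Over control, replicate 1 had a peak at the start (2.09), and replicates 1 and 4 had one at the upstream site (1.68 and 1.36). The intron held a further site, called in 3 controls and in Cph libraries 1 and 4.

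To compare both genotypes with the same measure, the share of each locus that lay in peaks called without a control was computed. The hormone loci carried little of such signal in either genotype. Their median share was 5.31% in Cph libraries and 3.84% in controls, and the medians over all loci were 17.7% and 19.5%. Receptor genes of the peptides and further peptide hormone genes, listed below, had similarly low medians. The control share was below the median of all loci in 9 of the 10 genes, *NPF* being the exception. GATC sites were also sparser than at the median locus in all 10 genes, with a median of 2.097 per kb against 3.53. Among the 5583 loci within the GATC range of the hormone genes (1.45 to 3.32 per kb) the median control share was 13.9%, and 7 of the 10 hormone loci lay below it. Whether GATC density has a part in the low shares was not tested.

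**Figure D3:**
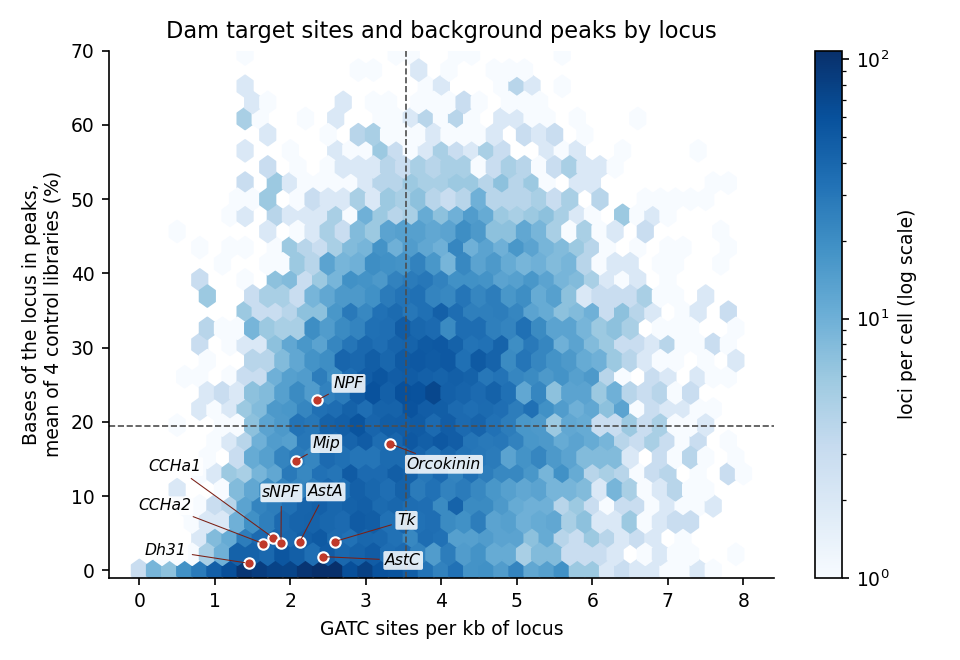
The x axis gives GATC sites per kb and the y axis the mean share of the locus in peaks of the 4 control libraries in percent; shading counts protein-coding loci on a log scale, red points are the 10 hormone genes and dashed lines the medians over all loci (27 loci above 8 GATC per kb and 7 above 70% are not drawn). All 10 genes lie left of the median density, and only *NPF* lies above the median share.

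The largest shares were those of *NPF*, with 25.1%, 5.80%, 20.9% and 26.8% in Cph libraries 1 to 4 and 20.6%, 17.0%, 27.6% and 26.3% in the controls. Cph library 2 stood apart as the lowest value. *Orcokinin* had 19.6%, 17.9%, 13.03% and 13.3% in the Cph libraries and 20.03%, 16.6%, 15.6% and 15.9% in the controls. For *Mip*, Cph libraries ranged from 12.9% to 16.2% and controls from 13.9% to 16.5%. In all 3 genes the genotypes overlapped. The next levels were much lower. *AstA* had 14.6%, 4.63%, 2.84% and 2.84% against 4.32%, 5.900%, 2.33% and 2.63%, and *CCHa2* had 10.8%, 3.78%, 2.92% and 5.07% against 5.77%, 3.403%, 2.59% and 2.68%. Cph library 1 was the highest of the 8 in both, and *CCHa2* was higher in the Cph library of 4 of 4 pairs. *CCHa1* had 9.49%, 4.41%, 2.85% and 2.89% against 6.38%, 5.84%, 2.65% and 2.70%, with Cph library 1 again the highest. *AstC* had 10.04%, 4.27%, 5.62% and 0% against 7.43%, 0%, 0% and 0%, so that 3 controls and Cph library 4 held no peak in the locus. *Tk* had 6.26%, 0%, 0% and 4.57% against 6.77%, 1.62%, 3.04% and 4.14%. Of the 2 lowest genes, *sNPF* had 3.30%, 1.11%, 0% and 1.88% against 4.78%, 2.51%, 3.67% and 3.71%, lower in the Cph library of 4 of 4 pairs. *Dh31* did not exceed 0.239% in the Cph libraries or 2.27% in the controls.

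**Figure D4:**
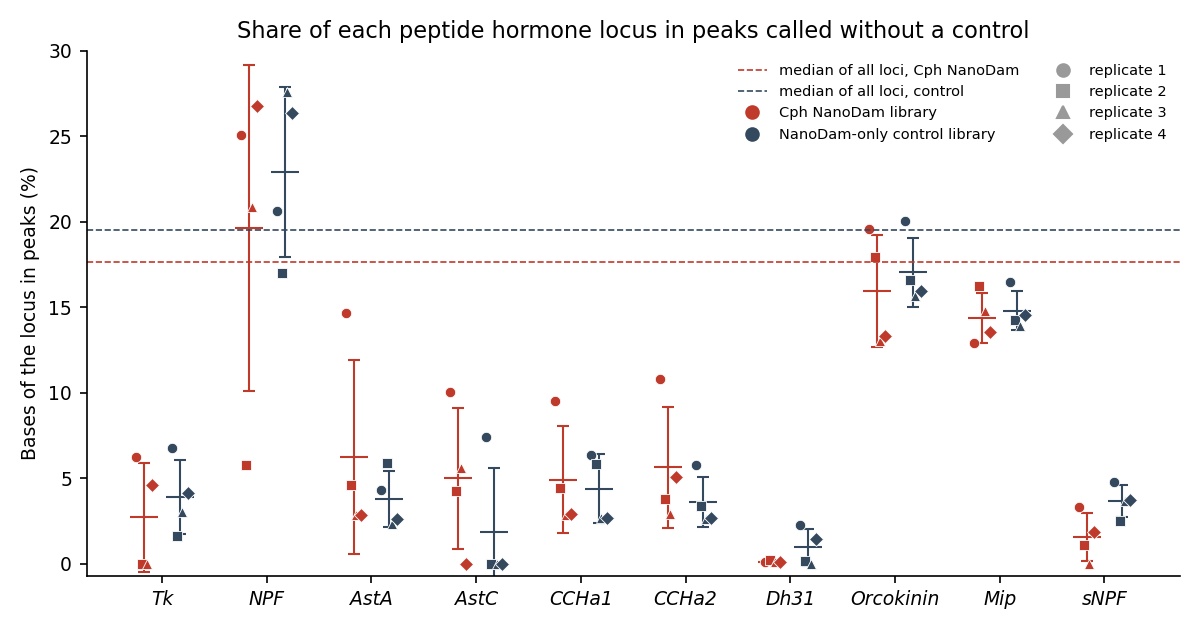
The y axis gives the percent of locus bases in peaks called without a control for the 10 genes; points are libraries (shape by replicate, red for Cph NanoDam and dark for control), horizontal ticks and bars are means and SD of 4 libraries, and dashed lines are the medians over all loci. The genotypes overlap in every gene, and *NPF*, *Orcokinin* and *Mip* stand above the other 7.

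None of the 10 loci was called different between the genotypes by this measure. The ranges of the 4 Cph and 4 control libraries overlapped in all 10. Over the 12948 loci with any peak, the ranges did not overlap in 1.65% with Cph higher and in 6.73% with Cph lower. The closest was *sNPF*, at 1.57% ± 1.39 in Cph libraries against 3.67% ± 0.926 in controls (SD, n = 4 each, exact two-sided permutation p = 0.0571, Benjamini-Hochberg adjusted p = 0.427 over 12948 loci). The smallest p that 4 against 4 libraries allow is 0.0286, and over all loci the smallest adjusted p was 0.341, so that this test called no locus. With limma on the same shares, 22 loci were called higher and 107 lower in Cph libraries, but 0 with the replicate block (2194 loci had an unadjusted p under 0.05), and none of the 10 genes was called in either fit. The difference in *sNPF* was -1.44 percentage points within replicates 1 and 2 and -2.75 within replicates 3 and 4. Without replicate 1, and likewise without replicate 2, the *sNPF* ranges no longer overlapped, but in the same settings 19.4% and 9.73% of all loci with a peak did so with Cph lower. *AstC* was at 4.98% ± 4.14 against 1.86% ± 3.72 (exact permutation p = 0.371), and *CCHa2* at 5.64% ± 3.54 against 3.61% ± 1.48 (exact permutation p = 0.4). Cph libraries had the lower mean in 6 of the 10 genes, and over all loci in 61.7%. The median difference was -0.63 percentage points over the 10 genes and -1.01 over all loci, where the control libraries were the deeper ones.

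The height of peaks could be compared at regions in which all 8 libraries had a peak for at least 200 bp, referred to as common regions. There were 16229 in the genome and 5 in the hormone loci, in *NPF*, *CCHa2*, *Orcokinin* and, with 2, *Mip*. The pileup, the number of fragments stacked at the peak, was scaled to 1000000 reads of the library. None of the 5 regions passed limma's test at an adjusted p of 0.05. Over the genome, 0.887% of common regions were called with Cph higher (144) and 0.105% with Cph lower (17). After scaling to the median over all common regions the counts were 92 and 39. With the replicate number as a block they were 1076 and 201, and with both the block and median scaling 950 and 703, again with 0 of the 5. Without replicate 1 the counts without a block rose to 392 and 29, and without replicate 2, 3 or 4 they fell to 0 and 0, with 1420 to 2035 regions at an unadjusted p under 0.05. The median over all common regions was 0.16 higher in Cph libraries on the log2 scale, and the differences given for single regions contain this shift.

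The common region at the start of *Mip* had a scaled pileup of 4.49, 6.04, 5.30 and 5.46 in Cph libraries 1 to 4 and 4.19, 2.79, 3.03 and 3.78 in the controls. The genotypes did not overlap there, and Cph was higher in 4 of 4 pairs. Of all common regions, 7.75% did not overlap with Cph higher and 2.5% with Cph lower. The log2 difference was 0.64 ± 0.22 (SE, limma adjusted p = 0.152 over 16229 regions), with similar values in replicates 1 and 2 (0.61) and in replicates 3 and 4 (0.67). With the replicate block the adjusted p was 0.0811, and after scaling to the median the difference was 0.47. At the region at the other end of *Mip*, which has 370 coding bases, the scaled pileup was 2.82, 3.02, 3.200 and 3.45 against 3.71, 3.31, 3.83 and 4.07. Cph was lower in 4 of 4 pairs, and the log2 difference was -0.26 ± 0.20 (limma adjusted p = 0.530). The Cph-over-control peaks of replicates 3 and 4 described above cover the same region, so that the measures differ in direction there.

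At the upstream region of *CCHa2* the scaled pileup was 15.96, 13.96, 18.7 and 16.7 in Cph libraries and 10.7, 7.65, 13.2 and 15.4 in controls. Cph was higher in 4 of 4 pairs, by 0.52 ± 0.24 on the log2 scale (limma adjusted p = 0.293), with control 4 inside the range of the Cph libraries. The *Orcokinin* region, inside *Stoml2*, was the highest of the 5 with a scaled pileup of 19.1 to 39.4 for Cph and 15.8 to 28.2 for control libraries. It differed by 0.43 ± 0.27 (limma adjusted p = 0.438). The *NPF* region had a scaled pileup of 2.93 to 6.83 against 3.27 to 4.30 and differed by 0.29 ± 0.26 (limma adjusted p = 0.601). The 95% intervals of the log2 difference were 0.17 to 1.11 at the *Mip* start, -0.01 to 1.04 in *CCHa2*, -0.16 to 1.01 in *Orcokinin*, -0.27 to 0.85 in *NPF* and -0.68 to 0.17 at the 3′ end of *Mip*, before adjustment.

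**Figure D5:**
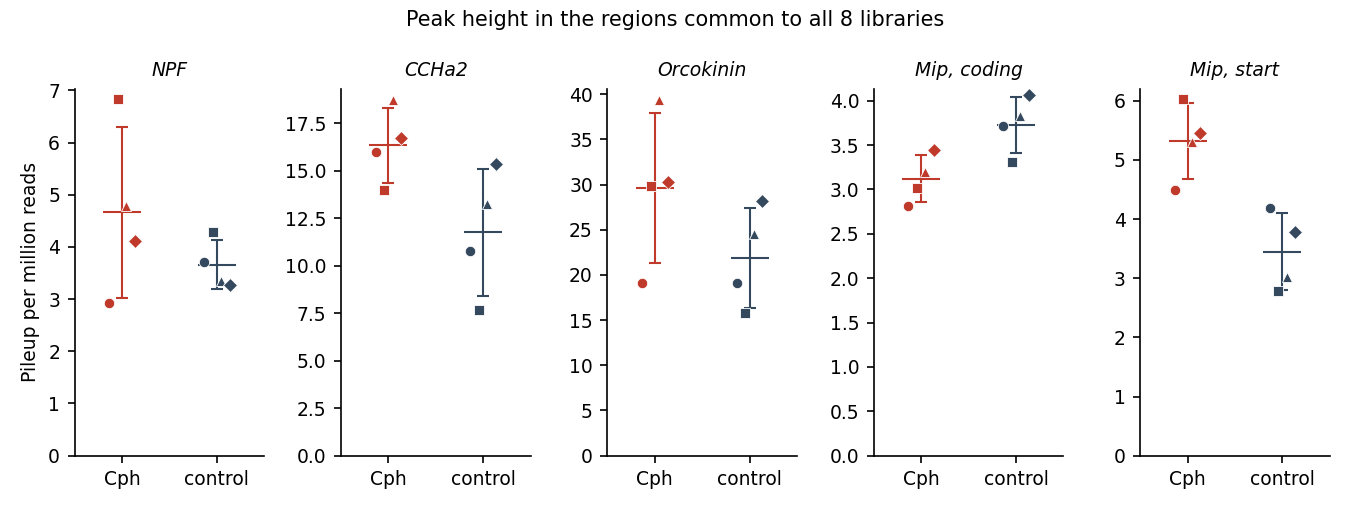
The y axis of each panel gives the pileup per 1000000 reads, on a scale of its own that starts at 0, for the 5 common regions in hormone loci; points are libraries (circle, square, triangle and diamond for replicates 1 to 4), and ticks with bars are means and SD of 4 libraries. Only at the *Mip* start do the Cph libraries all lie above the controls.

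Lists of genes around these hormones were set beside them. Of 12 receptor genes of the peptides, 3 held a shared region (*CCHa1-R*, *SPR* and *TkR99D*, 1 each). Of 9 genes for peptide processing and secretion, 6 did, with 13 regions in all, of which the convertase gene *Fur1* had 4 in a locus of 128628 bp, the carboxypeptidase gene *svr* 3 and *Fur2* 2. Of 5 other peptide genes of the gut found in the annotation, 2 did, with 8 regions in *ITP*, the gene of ion transport peptide, and 1 in *CCAP*. Of 20 further peptide hormone genes, most of them known from neurons, 4 did (*Akh*, *amn*, *Dh44* and *SIFa*, 1 each). These counts of 25%, 66.7%, 40% and 20% stand beside 39.5% over all loci and 30% for the EE hormone genes, and loci of the lists differ in length. No common region in the listed genes passed limma's adjusted p in the fit without a block. With the replicate block, 5 of the 45 such regions passed, where 6.63% of all common regions passed with Cph higher and 1.24% with Cph lower. The 5 lay in *amn* (adjusted p = 0.0105), *SIFa* (0.0278), *TkR99D* (0.0303) and *Fur2* (0.0321 and 0.0389), and all had Cph higher.

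The median share of the locus in peaks was 3.46% in Cph libraries and 4.35% in controls for the receptor genes. For the further peptide hormone genes it was 4.13% and 3.91%, so low medians were not particular to the EE hormone genes. The processing genes had higher medians in both genotypes (22.4% and 21.3%), and so did the other gut peptide genes. In this share, the ranges of the genotypes did not overlap in 5 of the 42 listed genes with any peak (11.9%), against 8.39% of all loci with a peak. They are named after their values were seen. *NPFR*, the receptor of NPF, had 2.63% to 6.51% in Cph libraries and 10.9% to 13.1% in controls. *CCAP*, *Burs* and *Pdf* were likewise lower in Cph libraries, *Pdf* with 6.66% to 16.3% against 23.0% to 25.2%. *SIFa* was higher, with 15.6% to 21.8% against 7.71% to 14.03%. Ranges that do not overlap always give the smallest exact permutation p possible (0.0286), so this p adds nothing to the choice of these genes. Its adjusted value over all loci was 0.341.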

How the data were processed

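The submitters' processing notes name Trim Galore 0.6.10, Bowtie2 2.5.4, SAMtools 1.20 and MACS2 2.2.9.1, while the deposited list headers give MACS 2.1.4 (broad peaks, q of 0.05, BDGP6). The authors deposited, per the file headers, the pileup of each peak (a signal not scaled for depth), its fold enrichment (a ratio to the local background) and the −log10 q-value. The short lists repeat these peaks and were not used.

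Genes came from Ensembl release 115 on the same assembly. Shares of loci were compared by exact permutation over 70 arrangements with Benjamini-Hochberg adjustment, and log2 pileup per 1000000 reads with limma 3.58.1 in R 4.3.3. The lists hold no reads per position, so no counting interval is given. Steps were tested on simulated data. The 10 genes and all lists were chosen with earlier results of these data known. All 10 genes are named, and listed genes are named where a common region passed or, failing that, up to 3 per list by shared regions; *amn*, *SIFa* and the genes with separate ranges were added afterwards.

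Libraries of the same number were taken as pairs, as in the authors' calls. Over loci, deviations of same-numbered libraries correlated by 0.143 to 0.381. In replicates 3 and 4 the correlation across numbers (0.249 and 0.299) was higher than that within numbers (0.223 in both). The correlations alone therefore do not settle the pairs. The study's methods describe the replicates as biological.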

Additional observations from a re-analysis of the deposited data

Results flagged for a closer look

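In 3 of 30 groups of 4 libraries 1 library stood far from the others. For *AstA* it was Cph library 1, with 14.6% of the locus in peaks against 2.84% to 4.63% in the other Cph libraries. For *AstC* it was control library 1, with 7.43% against 0% in the other controls. For *Dh31* it was Cph library 2, with 0.239% against 0.0834%, a difference of 28 bases at the 3′ end of the locus.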

How the results depend on the processing

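The 3 loci with a shared region and their 3 regions were also found with −log10 q of at least 5 and with a minimum length of 100 bp. They became 0 and 0 with a fold enrichment of at least 2 or a minimum of 500 bp, 6 and 8 in at least 3 of 4 lists, 1 and 1 with the gene body alone or with 1 kb upstream, and 4 and 5 with 3 kb on both sides. Leaving out each replicate gave 3 to 5 loci and 3 to 6 regions, the most regions without replicate 1 and the most loci without replicate 4. Between 0 and 1 loci had ranges that did not overlap when a replicate was left out, namely *sNPF* without replicate 1 or 2, where 23.9% and 14.7% of all loci with a peak did not overlap, against 8.39% with all replicates.

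The direction of the share difference, in percentage points, turned in *Tk* with −log10 q of at least 5 (0.28), in *Orcokinin* (2.38) and *Mip* (0.00972) with a fold enrichment of at least 2, in *NPF* with the gene body alone (1.93) or with 1 kb upstream (1.31), in *AstA* with 3 kb on both sides (-1.35), and without replicate 1 in *AstA*, *CCHa1* and *Mip*. Leaving out each replicate in turn gave -0.19 to 3.68 in *AstA*, -0.35 to 1.17 in *CCHa1* and -1.23 to 0.61 in *Mip*. Within replicates 1 and 2, *Orcokinin* was at 0.43. The causes were not tested beyond what the settings themselves change.

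Paired fits with the replicate block called 0 of the 10 loci by share and 0 of the 5 common regions in these loci, as did limma without it. Fits of log2 fold enrichment and fits after median scaling, alone or with the block, also called 0 of the 5 regions. A minimum of 100 bp, added after seeing the data, gave 7 common regions and 0 calls, and at 500 bp no common region was left in these loci. In every fit the 5 regions kept their direction. Replicate depth and the GATC spacing limit what a peak can resolve.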
